A study of Rattus norvegicus with 6 samples.

Results

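The genes described here encode potassium channels: the subunits that form the K+ pore and the auxiliary subunits that attach to it. They were taken as every gene whose name in the authors' table of age differences starts with Kcn, which gave 59 genes of the 29479 identifiers in the count table. That table names only genes the authors had called different between the ages in these same libraries. The Kcn genes were thus selected on their age difference in these pools, and those differences are given below as a description. Calls from a fit over all genes are stated only to place each gene against a threshold, and they are no independent evidence of an age difference, since the same counts chose the genes. The tissue was the lateral ventricular choroid plexus of untreated Sprague-Dawley rats at embryonic day 15 (E15) and, as adults, at 6 weeks. Left and right plexuses of 10 animals made 1 pool, and 3 pools were sequenced at each age (E15 replicates 1 to 3 and adult replicates 1 to 3). The plexus was taken whole, so every pool held blood vessels and stroma beside the epithelium.

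The choroid plexus epithelium secretes cerebrospinal fluid. Its Na+/K+ pump sits on the membrane that faces the ventricle and loads the cell with K+, and K+ channels let that K+ leave again, which keeps the pump supplied and sets the membrane potential. Pore subunits fall into a few families: voltage-gated channels, which open when the membrane is depolarized, channels opened by internal Ca2+ or Na+, inward rectifiers, which pass K+ more easily into the cell than out of it, and two-pore-domain channels, which carry a background leak. Many of the same families shape firing in neurons and tone in blood vessels.

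The libraries held between 17875089 and 19204440 counts. Of the 16 epithelial markers listed, the 13 named in the authors' table were present at both ages, with summed normalized counts of 471174 to 585065 at E15 and 4311352 to 5239597 in the adult, so the labelled tissue carried its defining transcripts throughout. The marker sums here and below hold only genes named in that table of called genes, so their differences between the ages were selected too. Normalized counts are raw counts divided by the effective library size (total times the TMM factor of edgeR) and brought to a library of 19267327. The TMM factors of the E15 libraries were 1.32 to 1.33 and those of the adult libraries 0.735 to 0.773. A ratio between the ages below is that of the counts summed over the 3 pools of each age, per effective library. A log2 difference is the value fitted by edgeR, E15 minus adult, with its standard error. In whole tissue, fewer cells of a type and less RNA per cell cannot be told apart.

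Reads from Kcn genes made up 0.0682% to 0.0765% of the E15 libraries and 0.230% to 0.246% of the adult libraries. After normalization the sum was 10397 ± 618 at E15 against 60634 ± 2786 in the adult (SD, n = 3 each), and without *Kcnj13* it was 6754 ± 618 and 19196 ± 482. The number of different Kcn genes with at least 1 raw count went the other way, with 57, 58 and 58 of the 59 genes at E15 and 49, 51 and 43 in the adult. Over the 3 pools of an age, 56 Kcn genes had at least 10 counts at E15 and 43 in the adult. Over the 16643 genes tested these numbers were 16033 and 14664, also lower in the adult, and the adult effective libraries were smaller. A Kcn gene with few adult counts could enter the set only through its E15 counts. The numbers of genes with counts at each age thus repeat the selection, and nothing is read from them. By normalized counts, 35 of the Kcn genes were higher at E15 and 24 in the adult, while the adult sum was the larger.

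In the adult, *Kcnj13*, *Kcne2* and *Kcnk1* together gave 87.3% to 89.7% of all Kcn counts of a library, and 8 genes gave 95.6% to 97.0%. At E15 the 3 leading genes were *Kcnj13*, *Kcne2* and *Kcnh2*, with 63.6% to 66.9%, and the leading 8 gave 78.1% to 80.6%. The share of *Kcnj13* alone was 39.3%, 31.1% and 34.9% in E15 replicates 1 to 3 and 68.4%, 66.6% and 69.9% in the adult replicates. *Kcne2* differed the opposite way in share, with 25.7% ± 2.16 at E15 against 11.3% ± 0.447 in the adult (SD, n = 3 each), although its own normalized count was higher in the adult. Reads per gene also depend on transcript length, so these shares describe the reads and do not rank the channels by number of transcripts.

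**Figure D1:**
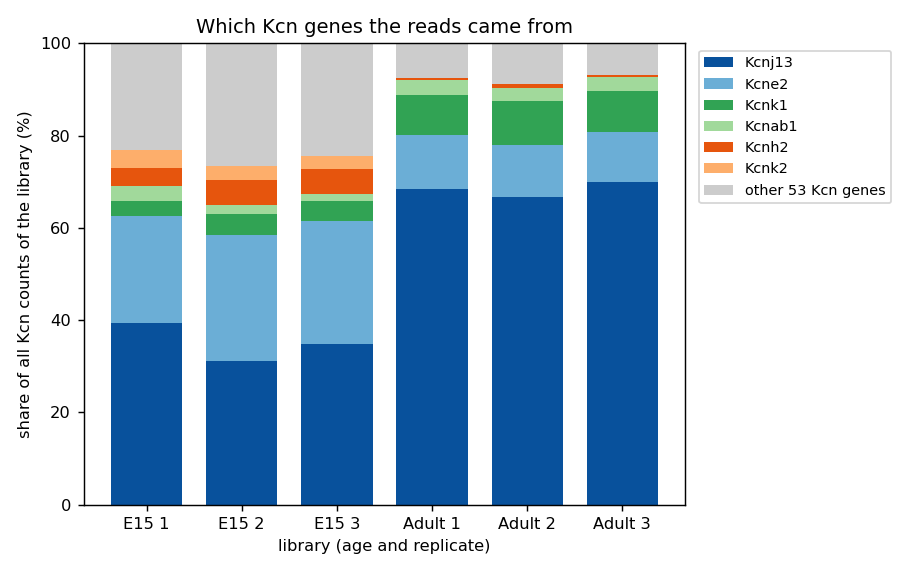
Each bar is 1 library, divided by the share (%) of its Kcn counts that came from the 6 genes in the key and from all other Kcn genes. *Kcnj13* takes 31.1% to 39.3% of the E15 bars and 66.6% to 69.9% of the adult bars, and the grey part for the remaining genes is larger at E15.

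A gene is called here when edgeR (quasi-likelihood F test, 16643 genes tested) gave it an adjusted p under 0.05. Of the 58 Kcn genes with enough counts to be tested, 28 were called higher at E15, 17 were called higher in the adult and 13 were not called. Over all genes tested 64.0% were called, 34.7% at E15 and 29.3% in the adult, and since the calls of the authors chose the Kcn genes nothing is read from the difference. The normalized counts of the ages did not overlap for 49 of the 59 genes, 31 of them higher at E15 and 18 higher in the adult, beside 70.1% of all genes tested (38.0% and 32.1%). The median log2 difference was 1.63 over the Kcn genes and 0.14 over all genes tested. With total counts as the only scaling the median of all genes moved to 0.94 and that of the Kcn genes to 2.42, and the share of calls over all genes that were higher at E15 went from 54.2% to 81.0%. Fitted differences above 10-fold were found for 17 Kcn genes on the E15 side and 10 on the adult side, beside 9.53% and 3.18% of all genes tested. These include *Kcnh8* and *Kcnk9*, which were not called and have no counts at the lower age.

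**Figure D2:**
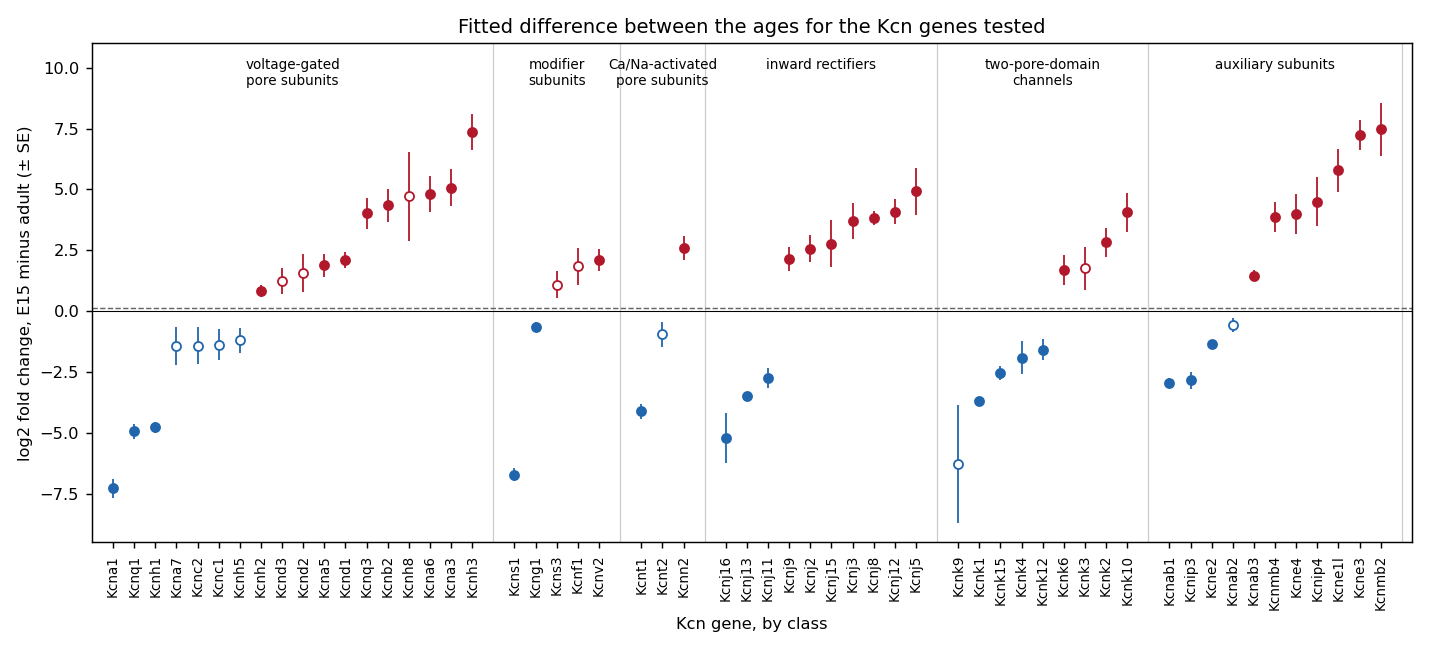
Fitted log2 difference (E15 minus adult) with its standard error for each Kcn gene tested whose values are reported, ordered within 6 classes, red above 0 and blue below. Filled symbols are genes called at an adjusted p under 0.05 by edgeR, open symbols are not called, and the dashed line is the median of all genes tested, 0.14, so that every class is seen to hold genes on both sides.

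The inward rectifiers, encoded by the Kcnj genes, split most plainly. *Kcnj13*, whose channel lies in the apical membrane of choroid plexus epithelium, had 4786, 4079 and 4937 counts at E15 against 30095, 29433 and 31660 in the adult. Every adult pool was above every E15 pool, the ratio was 11.4-fold and the log2 difference was -3.51 ± 0.13 (SE). *Kcnj11*, the pore of ATP-sensitive K+ channels in pancreatic islets and neurons, had 11, 17 and 28 counts against 92, 71 and 54, a ratio of 6.67 with no overlap. *Kcnj16*, a subunit that pairs with other rectifiers in kidney and glia, had 0, 1 and 2 counts at E15 against 8, 55 and 13 in the adult. Its ratio was 43.6-fold (exact 95% interval 14.4 to 216), 18.5-fold (5.53 to 97.0) without adult replicate 2, which held 72.4% of its adult counts, and 86.9-fold (15.1 to 3477) without E15 replicate 3. Such intervals, here and below, cover counting error only.

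The other 7 inward rectifiers had more reads at E15, and all 7 were called, beside 34.7% of all genes tested called at E15. They were chosen by the calls of the authors, so nothing is read from that number. *Kcnj8*, the pore of ATP-sensitive channels in vascular smooth muscle and pericytes, had 221, 350 and 305 counts at E15 against 11, 15 and 10 in the adult, 14.1-fold higher at E15. *Kcnj12*, a strong rectifier of heart and skeletal muscle, had 148, 320 and 280 counts against 14, 2 and 9, or 17.4-fold, and 26.8-fold without adult replicate 1. Both stood far above the adult range in every E15 pool. *Kcnj2*, its close relative in muscle and vessels, was lower in reads, with 43, 40 and 41 against 1, 4 and 7, a ratio of 6.00 that became 9.65 without adult replicate 3. Summed over the 9 genes other than *Kcnj13*, the inward rectifiers gave 684 ± 107 normalized counts at E15 against 187 ± 46.2 in the adult (SD, n = 3 each), 3.66 times as many at E15, whereas with *Kcnj13* the class was 9.62 times as high in the adult. The 9 mural cell markers that carry a name, *Pdgfrb* and *Rgs5* among them, had summed normalized counts of 8331 to 10965 at E15 and 1346 to 1597 in the adult, and none was at 0 at either age. The 10 named endothelial markers ran from 9502 to 13881 at E15 and from 1052 to 1489 in the adult. Of the 13 mural markers listed, *Acta2*, *Tagln*, *Myh11* and *Cnn1* carry no name in the authors' table. Of the 14 endothelial markers, *Cldn5*, *Kdr*, *Egfl7* and *Eng* carry none. Both sums thus cover only markers selected on their age difference. The part of vessel cells in the values of *Kcnj8*, *Kcnj12* and *Kcnj2* was not tested.

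Rectifiers opened by G proteins in heart and neurons were *Kcnj3*, *Kcnj5* and *Kcnj9*. *Kcnj3* had 211, 160 and 161 counts at E15 against 3, 21 and 0 in the adult, and 87.5% of its adult counts were in adult replicate 2. The ratio of 12.9 became 67.0 (exact 95% interval 22.8 to 326) without that library. *Kcnj5* had 24, 29 and 13 counts against 0, 1 and 0, a ratio of 38.3 (6.65 to 1537), and at least 8.31 without adult replicate 2. *Kcnj9* had 24, 47 and 68 counts against 5, 7 and 6, or 4.49-fold. All 3 were higher in each E15 pool than in any adult pool. *Kcnj15*, an epithelial rectifier, had 6, 28 and 28 counts against 4, 0 and 1, and its ages overlapped after normalization, with E15 replicate 1 as the low one. Its ratio of 7.20 lost its call without E15 replicate 2 (6.00), E15 replicate 3 (5.95), adult replicate 2 (4.69) or adult replicate 3 (6.03), and was 24.5 (4.23 to 982) without adult replicate 1. A gene listed only under the protein name IRK6_RAT, and so outside the rule, had 16, 4 and 6 counts against 7, 29 and 10.

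Promoter sequences are shown for 3 inward rectifiers because they face opposite ways in age: *Kcnj13* and *Kcnj16*, higher in the adult, and *Kcnj2*, higher at E15, which lies next to *Kcnj16* on rat chromosome 10 with no protein-coding gene between them in RefSeq. Each is 300 bases, from 250 before the annotated start to 50 after it, read 5′ to 3′ on the gene's strand from RefSeq (GRCr8). The sites are chr9:95518937-95519236 (minus strand) for *Kcnj13*, chr10:96517074-96517373 (plus strand) for *Kcnj16* and chr10:96559975-96560274 (plus strand) for *Kcnj2*. Capitals mark matches, on either strand, to a TATA box (TATAAA), the box named for its letters CCAAT, or a GC box (GGGCGG). A further motif, TAATCC, the core bound by OTX homeodomain factors, was searched and has no match in these 3 windows.
Kcnj13: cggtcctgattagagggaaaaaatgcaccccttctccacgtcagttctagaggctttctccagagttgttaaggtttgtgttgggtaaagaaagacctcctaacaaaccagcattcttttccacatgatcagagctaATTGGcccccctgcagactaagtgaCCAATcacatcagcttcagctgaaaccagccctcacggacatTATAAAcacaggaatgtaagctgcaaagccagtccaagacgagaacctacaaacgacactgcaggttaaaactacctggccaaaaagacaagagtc
Kcnj16: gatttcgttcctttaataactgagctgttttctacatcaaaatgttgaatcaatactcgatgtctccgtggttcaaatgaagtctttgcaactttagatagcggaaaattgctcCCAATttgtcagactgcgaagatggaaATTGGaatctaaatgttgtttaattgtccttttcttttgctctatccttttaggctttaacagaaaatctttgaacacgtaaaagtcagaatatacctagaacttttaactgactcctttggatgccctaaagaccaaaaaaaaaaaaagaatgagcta
Kcnj2: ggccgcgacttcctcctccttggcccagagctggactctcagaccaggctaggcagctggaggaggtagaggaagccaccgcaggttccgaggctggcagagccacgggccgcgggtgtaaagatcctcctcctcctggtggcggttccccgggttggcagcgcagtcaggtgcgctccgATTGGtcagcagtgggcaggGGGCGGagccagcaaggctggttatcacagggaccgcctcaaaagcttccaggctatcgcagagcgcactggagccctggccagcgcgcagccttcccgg
The *Kcnj13* window holds 1 TATAAA and 2 CCAAT matches with 5 CpG dinucleotides, that of *Kcnj16* 2 CCAAT matches with 6, and that of *Kcnj2* 1 CCAAT and 1 GGGCGG match with 19. Over the 33469 rat promoters in the same table, 14.2% held TATAAA, 37.5% CCAAT, 33.1% GGGCGG and 7.17% TAATCC, and the median was 7 CpG. Promoters were matched for 23 of the 35 Kcn genes higher at E15 (25 promoters) and 13 of the 24 higher in the adult (15 promoters). CCAAT was in 12.0% of the first (3 promoters) and 40.0% of the second (6 promoters), GGGCGG in 48.0% and 60.0%, TATAAA in 0% and 6.67%, TAATCC in 4% and 6.67%, and the median CpG was 11 and 18. Among those 6 are overlapping windows of *Kcnc2* that hold the same CCAAT site. *Kcnc2* and *Kcnab2*, also among them, were not called. A match of letters is a description of the window and says nothing about binding.

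**Figure D3:**
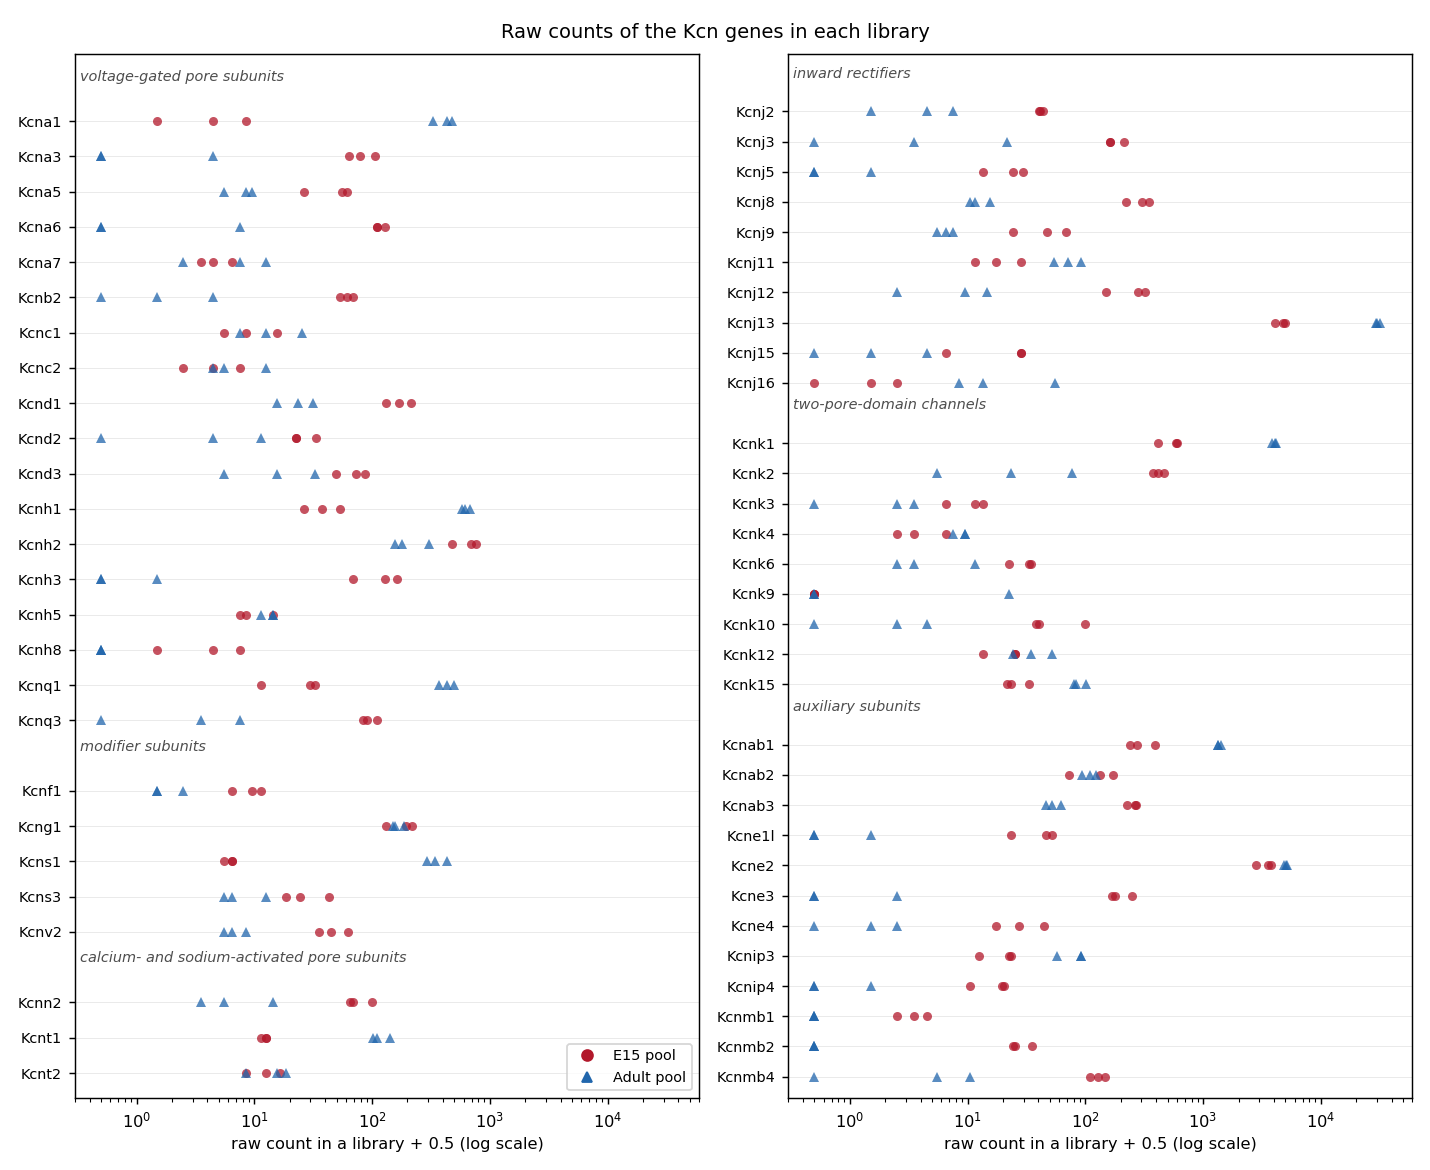
Raw count plus 0.5 of each Kcn gene reported, in each library, on a log axis, by class, with a circle for each E15 pool and a triangle for each adult pool. *Kcnj13* and *Kcne2* have the most reads at both ages, and adult-higher genes such as *Kcna1* and *Kcns1* stand beside close relatives, such as *Kcna6* and *Kcns3*, whose symbols lie in the reverse order.

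Voltage-gated pore subunits were the most numerous class, with 20 genes, 9 called at E15, 4 in the adult and 7 not called. Over all genes tested 34.7% were called at E15 and 29.3% in the adult. As the calls of the authors chose the Kcn genes, nothing is read from the difference. Their summed normalized count was 1323 ± 206 at E15 against 3326 ± 265 in the adult (SD, n = 3 each). Much of the adult sum came from *Kcna1*, *Kcnh1* and *Kcnq1*. *Kcna1*, a delayed rectifier best known from axons, had 8, 1 and 4 counts at E15 against 327, 477 and 431 in the adult, a ratio of 164, or 288 without E15 replicate 1. *Kcnq1*, which repolarizes the heart and carries K+ in epithelia together with KCNE subunits, had 11, 29 and 32 counts against 371, 494 and 430, or 31-fold. *Kcnh1*, of the ether-a-go-go type, had 26, 37 and 53 counts against 610, 673 and 577, or 27.6-fold. In these 3 genes the adult pools stood close together, and the lowest was above the highest E15 pool by a wide margin.

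Close relatives of these genes lay on the other side. *Kcna3*, a channel of lymphocytes and microglia that is also known from choroid plexus, had 63, 79 and 105 counts at E15 against 0, 0 and 4 in the adult, a ratio of 35.9. It was 23.3 without adult replicate 2 and at least 32.0 without adult replicate 3, where all of its adult reads were. *Kcna6*, another delayed rectifier of neurons, had 110, 129 and 109 counts against 0, 7 and 0, a ratio of 28.9, and at least 43.8 without adult replicate 2. In RefSeq *Kcna5*, *Kcna1* and *Kcna6* follow each other on chromosome 4 with no other protein-coding gene between them, and the outer genes were higher at E15 while *Kcna1* was higher in the adult. *Kcna5*, a channel of atrium and smooth muscle whose row is named Kcna5-m1Mcwi-, had 26, 61 and 55 counts against 9, 8 and 5, or 3.75-fold. Markers of macrophages and lymphocytes (6 named, none at 0 in the adult and 1 at 0 at E15) summed to 1368 to 1767 at E15 and 829.7 to 1121 in the adult. The list was divided: *Csf1r* (mean normalized count 1007 at E15 against 444), *C1qb* and *Cd79b* were higher at E15. *C1qa* (174 at E15 against 291), *Ptprc* (68.9 against 109) and *Cd3g* were higher in the adult. The part of these cells in the values of *Kcna3* was not tested.

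*Kcnh3*, an ether-a-go-go-like channel of the forebrain, had 69, 129 and 161 counts at E15 against 0, 1 and 0 in the adult. With a single adult read its ratio of 209 has an exact 95% interval of 37.2 to 8258, and without adult replicate 2 it was at least 45.2. *Kcnh2*, the erg channel that repolarizes the heart, was the voltage-gated gene with the most E15 reads, 479, 698 and 765, and kept 155, 304 and 179 in the adult. Its ages overlapped, E15 replicate 1 lying below adult replicate 2 after normalization. Its ratio of 1.77 lost its call without E15 replicate 3 (1.61), adult replicate 1 (1.59) or adult replicate 3 (1.65). *Kcnh8*, of the same family, had 1, 7 and 4 counts at E15 against none in the adult. A count of 0 allows up to 3 counts over the 3 pools, so this is at least 2.32-fold, not called with all libraries and called without E15 replicate 1 (at least 3.14), and it had too few counts to test without E15 replicate 2 (at least 1.47). Without adult replicate 2 it was at least 1.51 and not called. *Kcnh5* had 8, 14 and 7 counts against 11, 14 and 14, and was not called.

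*Kcnq3*, a subunit of the M-current, which damps repeated firing in neurons, had 110, 84 and 91 counts at E15 against 7, 3 and 0 in the adult, or 16.6-fold, and 37.5-fold (exact 95% interval 12.7 to 183) without adult replicate 1. For the delayed rectifier *Kcnb2* the counts were 61, 69 and 53 against 1, 4 and 0, a ratio of 21.3 that became 69.2 (12.3 to 2746) without adult replicate 2 and 14.2 without adult replicate 3. Neither gene had over 7 counts in an adult pool, and no adult pool reached an E15 pool.

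The Kcnd genes, A-type channels, which inactivate quickly, had the higher normalized counts at E15, and only *Kcnd1* was called with all libraries. *Kcnd1* had 130, 214 and 170 counts at E15 against 31, 15 and 23 in the adult, or 4.33-fold. *Kcnd2* (22, 22 and 33 against 4, 11 and 0) and *Kcnd3* (73, 49 and 86 against 5, 32 and 15) were not called with all libraries. The ages of *Kcnd3* overlapped, at normalized counts of 37.7 to 67.4 against 7.08 to 41.6. Both genes were called without adult replicate 2, *Kcnd2* at 7.27-fold in place of 2.98 and *Kcnd3* at 3.93-fold in place of 2.32. The low-count genes *Kcna7*, *Kcnc1* and *Kcnc2* had 2 to 15 counts per library at E15 and 2 to 25 in the adult, overlapped and were not called. *Kcna7* was called without adult replicate 1 (3.70-fold higher in the adult in place of 2.78) and was at 1.78 without adult replicate 3. *Kcnc1* was called without E15 replicate 1 (3.95 in place of 2.71) or adult replicate 1 (3.35), and was at 1.80 without adult replicate 2, where *Kcnc2* went from 2.78 to 1.83.

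Modifier subunits do not conduct alone but join Kcnb pores and alter their gating. *Kcns1* had 5, 6 and 6 counts at E15 against 345, 432 and 293 in the adult, 108-fold higher in the adult and the second largest ratio on that side after *Kcna1*. Its relative *Kcns3* had 18, 43 and 24 counts against 6, 12 and 5, overlapped and was not called. *Kcnv2*, known from photoreceptors, was 4.31-fold higher at E15, with 62, 35 and 44 counts against 5, 8 and 6. *Kcnf1* had 6, 9 and 11 counts against 1, 1 and 2 and was not called. *Kcng1* had 132, 195 and 216 counts against 151, 188 and 156, and its direction rests on the scaling: the log2 difference was -0.65 ± 0.22 (SE) with TMM factors and 0.15 with total counts only. Without adult replicate 2 its call was lost, at a ratio of 1.5 in place of 1.57. Of the genes opened by internal ions, *Kcnt1*, a Na+-activated channel, had 12, 12 and 11 counts at E15 against 142, 110 and 101 in the adult, or 17.4-fold. *Kcnt2*, its relative, had 8, 16 and 12 against 8, 15 and 18 and was not called. *Kcnn2*, a small-conductance Ca2+-activated channel, had 64, 68 and 99 counts against 5, 14 and 3, higher at E15 by 6.10-fold and by 10.9-fold without adult replicate 2.

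Two-pore-domain channels were split, with 3 genes called at E15, 4 in the adult and 2 not called. These numbers stand beside 34.7% at E15 and 29.3% in the adult over all genes tested, and repeat the selection by the authors' calls. *Kcnk1*, a weakly conducting channel that cycles through endosomes and is known from kidney and brain, had 412, 591 and 605 counts at E15 against 3863, 4160 and 4065 in the adult, 12.9-fold higher in the adult. *Kcnk2*, a channel opened by stretch and lipids, had 465, 417 and 375 counts against 5, 77 and 23, 6.95-fold higher at E15 and 17.0-fold without adult replicate 2. These were the class's genes with the most reads, and neither overlapped between the ages. Without *Kcnk1* the class summed to 450.2 ± 65.4 normalized counts at E15 against 248 ± 79.2 in the adult (SD, n = 3 each), and the adult sums of 176, 332 and 235 were highest in replicate 2. *Kcnk10*, a relative of *Kcnk2*, had 99, 40 and 38 counts at E15 against 2, 0 and 4 in the adult, or 17.1-fold. It was 11.1-fold without E15 replicate 1 or without adult replicate 2, and 34.4-fold (9.39 to 286) without adult replicate 3.

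On the adult side, *Kcnk15* had 23, 21 and 33 counts at E15 against 83, 100 and 79 in the adult, or 5.86-fold, and *Kcnk12* had 13, 25 and 25 against 24, 34 and 52, or 3.01-fold. *Kcnk4*, a mechanically gated channel of neurons, had 6, 3 and 2 counts against 7, 9 and 9. Its ratio of 3.91 lost its call without E15 replicate 2 (3.54), E15 replicate 3 (3.18), adult replicate 2 (3.85) or adult replicate 3 (3.74). *Kcnk6* had 22, 33 and 34 counts against 3, 11 and 2, higher at E15, and its ratio of 3.23 lost its call without E15 replicate 2 (3.09), E15 replicate 3 (3.01), adult replicate 1 (2.70) or adult replicate 3 (2.47) and was 6.73 without adult replicate 2. Both are genes of few reads, and leaving out any of these libraries lost the call without changing the direction. *Kcnk3*, an acid-sensitive leak channel, had 13, 11 and 6 counts against 0, 3 and 2 and was not called, at 3.48-fold higher at E15, or 5.67 (1.44 to 49.0) without adult replicate 2. *Kcnk9*, its relative, had no count in any library but adult replicate 2, where it had 22. Its adult level was at least 12.6-fold higher with all libraries and not called, called at least 18.6-fold and 18.9-fold higher without adult replicate 1 or 3, and at least 8.31-fold and 8.38-fold higher and not called without E15 replicate 2 or 3. Finally, without adult replicate 2 there was no read at either age.

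Auxiliary subunits do not form the pore but set its gating, trafficking or Ca2+ response. *Kcne2*, which joins *Kcnq1* and other pores in choroid plexus and stomach, had 2833, 3580 and 3770 counts at E15 against 5132, 5021 and 4884 in the adult, with no overlap and a ratio of 2.54 (log2 difference -1.35 ± 0.12, SE). Every other Kcne gene was higher at E15. *Kcne3*, a partner of *Kcnq1* in intestine and airway, had 249, 179 and 167 counts at E15 against 2, 0 and 0 in the adult, a ratio of 173 (exact 95% interval 47.6 to 1430.1), 112 (31 to 931) without adult replicate 2 and at least 78.3 without adult replicate 1. *Kcne4* had 44, 17 and 27 counts against 2, 1 and 0, a ratio of 17.0 (5.64 to 84.2) and of 34.7 (6.07 to 1387) without adult replicate 1. *Kcne1l* (*Kcne5* in RefSeq) had 23, 46 and 52 counts against 1, 0 and 0, a ratio of 70.3 (12.4 to 2798), 45.7 (8.05 to 1821) without adult replicate 2 and at least 15.9 without adult replicate 1. In the adult the family was thus nearly all *Kcne2* by reads.

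The beta subunits of the large-conductance Ca2+-activated channel were seen at E15 and little in the adult. *Kcnmb4*, the neuronal form, had 109, 128 and 147 counts at E15 against 10, 5 and 0 in the adult, or 14.9-fold, and 30.3-fold without adult replicate 1. *Kcnmb2* had 35, 24 and 25 counts at E15 against none in the adult, at least 16.3-fold higher, or at least 10.6-fold without adult replicate 2. *Kcnmb1*, the smooth muscle form, had 2, 3 and 4 counts at E15 against none in the adult, too few to be tested. The cytoplasmic beta subunits of Kcna channels differed among themselves. *Kcnab1* had 393, 274 and 238 counts against 1414, 1336 and 1346, 7.79-fold higher in the adult, and *Kcnab3* had 227, 268 and 262 against 52, 46 and 62, 2.75-fold higher at E15. *Kcnab2* had 72, 172 and 132 against 109, 122 and 93 and was not called, at a log2 difference of -0.58 ± 0.30 (SE) with TMM factors and of 0.23 with total counts only, and it was called without E15 replicate 2 (1.80-fold higher in the adult in place of 1.48). Of the Ca2+-binding partners of Kcnd channels, *Kcnip3*, which also acts as a transcription repressor, had 12, 22 and 23 counts against 92, 91 and 57, 7.25-fold higher in the adult. *Kcnip4* had 20, 10 and 19 against 0, 1 and 0, a ratio of 28.5 (4.87 to 1147) at E15 and of at least 6.17 without adult replicate 2.

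The 35 genes higher at E15 summed to 2925 ± 183 normalized counts at E15 against 603 ± 174 in the adult (SD, n = 3 each), with 489.9, 804 and 515 in adult replicates 1 to 3. The 21 genes higher in the adult other than *Kcnj13*, *Kcne2* and *Kcnk1* summed to 729.7 ± 41.8 and 6277 ± 320.0, and there the adult pools were close to each other, at 6451, 6472 and 5907. Both groups were formed by the age with the higher normalized count, so which age had the larger sum was fixed by the grouping. The spread between pools was not used to choose the genes. Adult replicate 2 was the highest adult pool for 22 of the 43 Kcn genes with at least 10 adult counts (51.2%), beside 33.8% of all genes with that many. It held more than 50% of the adult counts of 11 of the 43 (25.6%), beside 6.64% of all such genes. For adult replicates 1 and 3 these shares were 6.98% and 4.65% of the 43, beside 2.05% and 2.11%, so they too were above the share over all genes. The genes behind these shares were not matched for their number of counts. Of the 11 genes with over 50% in adult replicate 2, 7 were higher at E15: *Kcnj3*, *Kcnk2*, *Kcnd2*, *Kcnd3*, *Kcnn2*, *Kcnk6* and *Kcns3*. Genes with fewer adult counts were left out of this number, since a single read puts all of a gene's counts in the same pool. *Kcnk9* and *Kcnj16* were the adult-higher genes with the greatest share there.

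Markers of other cells moved with this pool. All 8 named markers of adult neurons were highest in adult replicate 2, and 7 of them had more than 50% of their adult counts in it. Their sums were 443, 1253 and 364 in adult replicates 1 to 3 and 380.4 to 906 at E15, and none was at 0 at either age. The 10 named markers of developing neurons with at least 10 adult counts were also all highest in that pool. *Reln* gave most of the reads of that list in the adult and was set aside after its values were seen. The remaining 16 summed to 179.8, 869 and 221 in the adult and to 2236 to 6447 at E15, with *Neurod6*, *Neurog1*, *Nhlh1* and *Nhlh2* at 0 in the adult. Markers of astrocytes and ependyma summed to 3472, 7646 and 3008, and all 5 named were highest in adult replicate 2. Other lists leaned to this pool by less: 3 of 3 erythroid markers (median log2 deviation 0.94, sums of 116, 232 and 148), 7 of 9 mesenchymal markers (0.59, sums of 16264, 17259 and 16442) and 7 of 10 endothelial markers (0.44, sums of 1052, 1489 and 1195) were highest there. Oligodendrocyte markers were instead highest in adult replicate 1, at 9244, 4766 and 3494. The 13 epithelial markers had a median log2 deviation of 0.00 in adult replicate 2 from the mean of the other pools, beside 1.92 for adult neurons and 0.17 for the Kcn genes. The part of RNA from any of these other cells in the adult values of the Kcn genes was not tested.

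**Figure D4:**
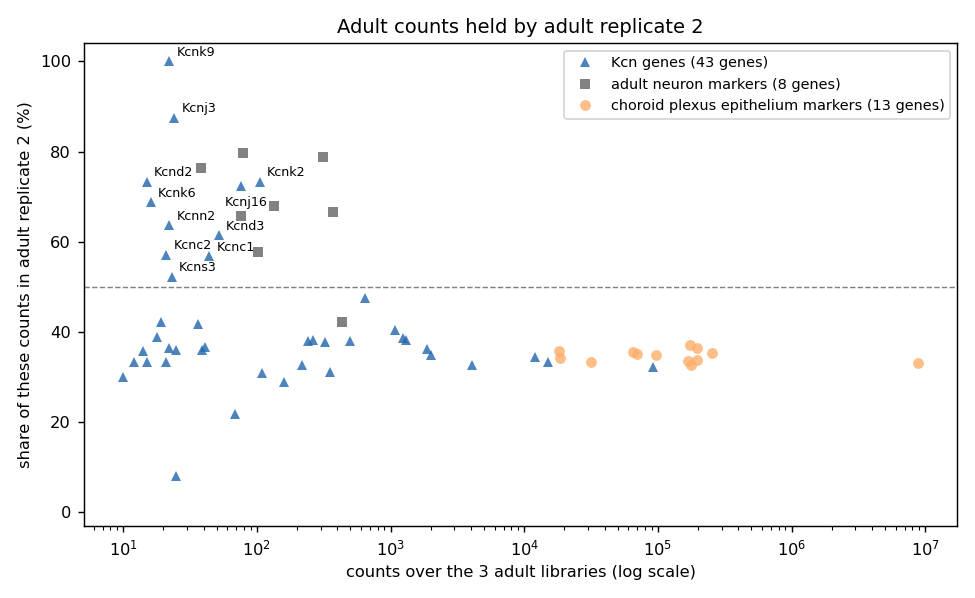
Share (%) of a gene's adult counts found in adult replicate 2 against its counts over the adult libraries (log axis), for Kcn genes, adult neuron markers and epithelial markers with at least 10 adult counts. The 11 named Kcn genes above the dashed line at 50% have 15 to 105 adult counts, 7 of the 8 neuron markers lie above it, and *Kcnj13*, *Kcne2* and *Kcnk1* lie with the epithelial markers near an equal share.

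At E15 the pools also differed in neuronal markers. The list without *Reln* summed to 6447, 2236 and 4846 in E15 replicates 1 to 3, so that replicate 1 was highest and replicate 2 lowest. That order of the pools was found in 10 of the 56 Kcn genes with at least 10 E15 counts (17.9%), beside 24.8% of all genes with that many, and the part of neuronal RNA in their E15 values was not tested. Those 10 were *Kcna1*, *Kcnc1*, *Kcnq3*, *Kcnv2*, *Kcnj2*, *Kcnj3*, *Kcnj13*, *Kcne4*, *Kcnip4* and *Kcnmb2*. The median log2 deviation of the Kcn genes was -0.25, 0.02 and 0.09 in E15 replicates 1 to 3.

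Other genes of K+ handling were taken from lists of partner subunits, scaffolds, other K+-permeable channels, pumps and cotransporters, and kinases and ligases. Their names too come only from the table of called genes, so the counts below repeat that selection, and nothing is read from them beside the 34.7% at E15 and 29.3% in the adult called over all genes tested. Of 15 pump and cotransporter genes tested, 11 were called in the adult and 1 at E15, with a median log2 difference of -2.54 beside 0.14 over all genes. *Atp1b1*, the beta subunit of the Na+/K+ pump, had 1446, 1588 and 1427 counts at E15 against 60185, 62617 and 61480 in the adult, or 71.1-fold higher in the adult. *Slc12a2*, the Na+-K+-2Cl- cotransporter, was 7.31-fold higher in the adult, with 12564, 10388 and 10394 counts against 45568, 49953 and 46142. This pump subunit, the cotransporter and *Kcnj13* thus stood on the same side, each without overlap between the ages.

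Of 5 partner subunits tested 2 were called at each age, again beside 34.7% at E15 and 29.3% in the adult over all genes tested and with names limited to called genes. *Dpp6*, which joins Kcnd channels, had 365, 650 and 578 counts at E15 against 6, 81 and 11 in the adult, 9.44-fold higher at E15, with 82.7% of its adult counts in adult replicate 2, and its log2 difference of 3.26 was 5.09 without that library. Both *Lrrc38* and *Lrrc55*, gamma subunits of the large-conductance Ca2+-activated channel, were called, on opposite sides. *Lrrc38* was 18.1-fold higher in the adult (5, 16 and 30 counts against 173, 181 and 183), with a log2 difference of -4.18, or -4.86 without E15 replicate 3. *Lrrc55* was 22.4-fold higher at E15 (118, 216 and 167 counts against 4, 4 and 5). Of 8 scaffold genes 4 were called at each age. Of 10 other K+-permeable channels 6 were called at E15 and 3 in the adult, and the pacemaker channels were divided among them. *Hcn4* was 9.75-fold higher at E15 (173, 246 and 269 counts against 9, 31 and 1), with a log2 difference of 3.29, or 4.63 without adult replicate 2. *Hcn2* was 4.62-fold higher in the adult (74, 81 and 74 counts against 168, 247 and 199). Among 6 kinases and ligases 4 were called at E15 and 2 in the adult, including *Sgk1*, a kinase induced by corticosteroids, at 11.8-fold.

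Whether reads were counted by strand is not given in the sources used here. The RefSeq spans of 10 Kcn genes overlap a protein-coding gene, among them *Kcnj13* with *Gigyf2*, *Kcnh3* with *Mcrs1*, *Kcnk15* with *Rims4* and *Kcnab2* with *Nphp4*, and reads of overlapping genes may have been lost or shared in counting.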

How the data were processed

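Transcripts of the lateral ventricular choroid plexus were sequenced at E15 and in the adult, from 3 pools of 10 rats an age. Bowtie 0.12.7 (mapping) and HTSeq 0.4.7p4 (counting on Ensembl genes) are the tools the authors used. The deposited values are raw counts for 29479 identifiers, without normalization. Gene names came from a second deposited table, which also holds log2 fold changes, log2 abundances and p-values from the authors' own comparison with edgeR 2.4.0. Those values were not used.

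The 16643 genes with a total above 10 counts were fitted with edgeR 4.0.16 in R 4.3.3 (TMM factors, quasi-likelihood test, age as the only term), with Benjamini-Hochberg adjustment and a threshold of 0.05. The script was tested on simulated data. Alternatives were other scalings and filters, DESeq2 1.42.0, limma-voom (limma 3.58.1), edgeR's exact test, the replicate number as a block and each library left out. Summaries used Python 3.11.15, pandas 2.3.3, scipy 1.17.1 and matplotlib 3.10.9. Deviations of a pool used a pseudocount of 0.5. Ratios with 1 to 3 counts at an age carry exact 95% intervals, and 0 counts at an age were taken to allow up to 3. Replicates differed by more than sampling noise (chi-square per degree of freedom 4.57 to 46.5).

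The genes, the lists and the tests were chosen with earlier results of these data known. Kcn genes are named with their family, and the results of some genes are not reported here. By a rule, raw counts are given for those with the most reads, the largest differences, no counts at an age, a known role in choroid plexus, or a call or direction that an alternative changed. Further counts were added where a family is described, and the gene listed as IRK6_RAT was singled out after its values were seen.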

Additional observations from a re-analysis of the deposited data

How the results depend on the processing

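Of the 58 Kcn genes tested, 39 kept direction and call under all alternatives that gave them a value. The fits found 25 to 34 genes called at E15 and 14 to 24 in the adult, apart from the filter to a mean count above 100, which left 23 of the genes and called 11 at E15 and 11 in the adult, fewer because fewer genes were tested. Leaving out 1 library at a time gave 25 to 29 at E15 and 15 to 20 in the adult. With total counts as the only scaling, among the log2 differences that reversed were *Kcng1* to 0.15, *Kcnab2* to 0.23, *Dlg1* to 0.04 and *Tmem175* to 0.02. The same change of scaling moved the median over all genes tested from 0.14 to 0.94. Why the scalings differ was not tested. Requiring a fold above 2 as well gave 27 and 16.

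With the replicate number as a block, 26 genes were called at E15 and 17 in the adult. Deviations of pools with the same number correlated at -0.0192, -0.011 and -0.0607 across genes. Pools with different numbers correlated at -0.0247 to 0.0528, so a shared number brought no greater likeness by this measure. Whether pools with the same number shared a day or a step of handling was not tested. Calls of 6 Kcn genes were lost in some setting (*Kcnh2*, *Kcng1*, *Kcnj15*, *Kcnk4*, *Kcnk6* and *Kcnk12*), and 13 not called were called in some. The exact test with a common dispersion, the kind of test by which the authors called these genes, called 34 at E15 and 24 in the adult. It called each of those 13, so that number was set by the selection. Shares per transcript length were not run, since the reference used gives no transcript lengths. Depth limits the genes with under 10 counts at an age. Whether the pools of an age came from separate litters or days is not given in the sources used here, so the spread between them may be partly technical.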
